A study of Rattus norvegicus with 21 samples.

Results

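The protein phosphatases on this rat array were examined as 2 families, the tyrosine phosphatases and the serine/threonine phosphatases. Members were all probes whose gene symbol in the platform annotation begins with Ptpn, Ptpr or Ptp4a, or with Ppp and a digit. The rule found 60 probes of 57 genes among the 5376 probes on the array. Of these probes, 31 belong to 28 tyrosine phosphatase genes and 29 to 29 genes of serine/threonine phosphatase subunits and partners. The study hybridised 21 two-colour arrays in 7 groups of 3. Every sample was total RNA of rat spinal cord. The Uninjured group was freshly dissected cord, and the Injured 4 hr group was cord kept for 4 hr in culture with PBS. The remaining groups were cultures of the same length given CKIN, MP, acetaminophen (Acet), indomethacin (Indo) or NS398. The labels do not spell out CKIN and MP, which in this field usually stand for cytokine inhibitors and methylprednisolone. Indomethacin and NS398 inhibit cyclooxygenases, NS398 preferring the inducible enzyme, and acetaminophen is an analgesic. Each array set its sample against pooled culture RNA. The pool was of PBS-treated cultures for all groups except Indo, set against an ETOH-treated pool, and NS398, set against a DMSO-treated pool. The injured state was therefore that of dissected cord in culture, with no circulating blood cells. The labels give no dose, age, strain or sex, and do not say whether the arrays of a group came from separate animals, so the p-values describe only how much these samples vary, which may be technical.

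Protein phosphatases remove the phosphate groups that kinases add. Tyrosine phosphatases carry their catalytic domain in 1 polypeptide, either a cytoplasmic enzyme (Ptpn) or a transmembrane receptor (Ptpr), and the small PRL enzymes (Ptp4a) are tethered to membranes. The serine/threonine enzymes are built from few catalytic subunits and many regulatory ones, which choose the substrate and the place. PP1 (Ppp1) and PP2A (Ppp2) account for most of this activity in cells. PP2B, or calcineurin (Ppp3), is switched on by calcium and calmodulin and is abundant in neurons. In the nervous system these enzymes set the state of glutamate receptors, ion channels and the cytoskeleton.

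All values are log2 ratios of sample to pool, less the median of their array, and are called centred ratios. A difference of 1 is a 2-fold change in the ratio. The order of the array titles makes the sample the numerator, which is likely but is not stated. A member was tested where at least 2 arrays of each compared group held a value. It was counted as higher or lower where limma's Benjamini-Hochberg adjusted p, taken over all probes tested, was under 0.05. Between 41 and 60 members were measured on each array. Before centring, the median ratio of an array was between -4.12 and -3.09 for fresh cord. It was between -2.26 and -2.12 for injured cord, and between -1.62 and 0.70 with treatments. The median absolute deviation of the centred ratios was 1.30 to 1.40 on the Uninjured arrays and 0.57 to 0.62 on the Injured 4 hr arrays. Of the 15 treatment arrays, 10 lacked over 1100 spots, among them all 3 of CKIN and all 3 of Indo, and these are called sparse arrays. Replicate 2 of MP, 2 and 3 of Acet and 2 and 3 of NS398 were not sparse. From 11.7% to 19.6% of the values on treatment arrays were ratios of whole numbers up to 30 (within 6e-05 on the log2 scale), against 0.799% to 1.80% on the other arrays.

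The first comparison asked which phosphatases differed between cultured, injured cord and fresh cord. Ratios of calcineurin, PP1 and PP2A subunits, 9 of 29 serine/threonine probes in all, were lower in the injured cord, as were 2 of 31 tyrosine phosphatase probes. All 60 members were tested. None was higher, against 0.809% of all probes tested, and 11 were lower, against 13.5% of all probes. At an unadjusted p under 0.05, limma placed 2 members higher and 18 lower, where 1397 of all 4821 probes tested passed in either direction. Without centring, the median of all probes shifted by 1.47, and then 21 members were higher and none lower, so directions here are relative to the array median. The median change was -1.07 over the serine/threonine probes, 0.05 over the tyrosine probes and -0.05 over all 4821 probes tested.

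**Figure D1:**
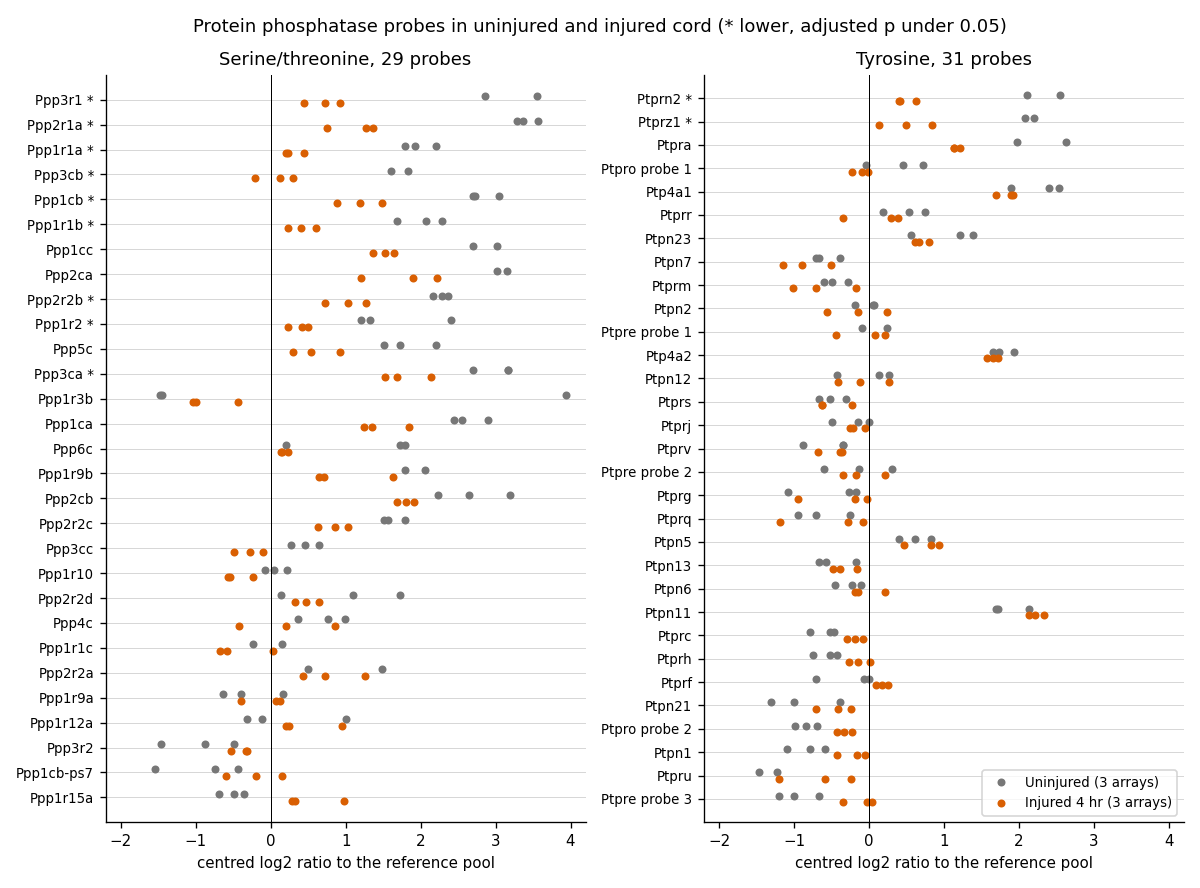
Centred log2 ratio of each member probe on the 3 Uninjured arrays (grey) and the 3 Injured 4 hr arrays (orange), with serine/threonine probes on the left and tyrosine probes on the right, ordered by the change. Asterisks mark the 11 lower members: 9 stand on the left and 2 on the right.

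Calcineurin, the calcium-activated enzyme, held 3 of the lower members among its 5 probes. These are Ppp3ca and Ppp3cb, which encode catalytic A subunits, and Ppp3r1, the calcium-binding B subunit. The 250 bases before the annotated starts of these 3 subunit genes are shown, from RefSeq promoters of the rat build GRCr8. A link between promoter sequences and the changes was not tested. Of the 57 member genes, 47 had such a sequence, with 49 promoters in all. Capitals mark GC boxes (GGGCGG) and cyclic AMP response element core sites (TGACG), searched on both strands.
Ppp3ca: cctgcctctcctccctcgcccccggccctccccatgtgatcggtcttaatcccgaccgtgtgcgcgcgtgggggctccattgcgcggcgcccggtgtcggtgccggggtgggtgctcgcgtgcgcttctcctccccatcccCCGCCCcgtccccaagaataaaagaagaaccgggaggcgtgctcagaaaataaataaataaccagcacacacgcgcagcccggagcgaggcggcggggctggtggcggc
Ppp3cb: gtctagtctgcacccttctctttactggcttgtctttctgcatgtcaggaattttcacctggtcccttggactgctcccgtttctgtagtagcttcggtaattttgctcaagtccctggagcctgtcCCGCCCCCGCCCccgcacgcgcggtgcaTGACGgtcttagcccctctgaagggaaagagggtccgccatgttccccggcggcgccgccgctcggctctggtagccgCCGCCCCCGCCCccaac
Ppp3r1: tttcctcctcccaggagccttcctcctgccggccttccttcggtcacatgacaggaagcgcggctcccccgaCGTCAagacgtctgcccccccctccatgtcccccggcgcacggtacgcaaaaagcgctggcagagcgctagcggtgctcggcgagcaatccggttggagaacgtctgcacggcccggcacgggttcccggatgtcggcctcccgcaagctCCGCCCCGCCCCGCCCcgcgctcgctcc
The Ppp3ca window lies at chr2:227839357-227839606 on the plus strand and held 1 GC box. The Ppp3cb window lies at chr15:3809012-3809261 on the plus strand and held 4 GC boxes and 1 core site. The Ppp3r1 window lies at chr14:95769596-95769845 on the plus strand and held 3 GC boxes, which overlap, and 1 core site. A GC box was present in 28 of the 49 member promoters and in 30.5% of all 33469 promoters of this length, and a core site in 16 of the 49 and in 18.2% of all.

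Ppp3r1 stood at 3.55 and 2.86 on the 2 Uninjured arrays that measured it and at 0.45, 0.92 and 0.72 on the Injured 4 hr arrays. The groups were far apart. The change was -2.51 ± 0.43 (SE; adjusted p = 0.000784). Ppp3cb stood at 1.83 and 1.61 on 2 Uninjured arrays and at -0.21, 0.13 and 0.30 on the injured arrays, again without overlap, and its change was -1.65 ± 0.51 (adjusted p = 0.0345). Ppp3ca stood at 3.17, 3.16 and 2.70 against 1.52, 1.69 and 2.14, a change of -1.22 ± 0.38 (adjusted p = 0.0336). All injured arrays lay below all uninjured ones for these 3 genes. Ppp3r1 passed in each of 4 fits that left out 1 array, Ppp3cb in none of 4 (changes from -1.77 to -1.51), and Ppp3ca in 2 of 6 (changes from -1.40 to -1.09). Ppp3r1 and Ppp3cb were not tested without either of their 2 Uninjured values, so their 4 fits kept both values. Ppp3cc, the testis-enriched catalytic subunit, differed by -0.74 ± 0.55 and did not pass (adjusted p = 0.395). Ppp3r2, a second B subunit known mainly from testis, differed by 0.55 ± 0.47 and did not pass (adjusted p = 0.453).

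PP1 has 4 probes to its catalytic subunits. Ppp1cb stood at 2.73, 3.04 and 2.70 in Uninjured and at 1.19, 1.48 and 0.89 in Injured 4 hr. The groups did not overlap, and the change was -1.64 ± 0.39 (adjusted p = 0.0074). The probe annotated to the pseudogene Ppp1cb-ps7 differed by 0.68 ± 0.35 with overlapping groups (adjusted p = 0.205), and cross-hybridisation between the pair was not tested. Ppp1ca stood at 2.45, 2.90 and 2.55 against 1.24, 1.35 and 1.84, with no overlap, and the difference of -1.16 ± 0.46 did not pass (adjusted p = 0.0977). Ppp1cc, the third isoform, differed by -1.36 ± 0.50 and did not pass either (adjusted p = 0.0708).

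Among 10 probes to PP1 regulatory partners, 3 were lower, and these encode small inhibitors of the enzyme. Ppp1r1a, or inhibitor 1, stood at 1.79, 2.20 and 1.93 in Uninjured and at 0.23, 0.45 and 0.21 in Injured 4 hr. Its groups were more than their own spread apart, and the change was -1.67 ± 0.39 (adjusted p = 0.00565). Ppp1r1b, or DARPP-32, the dopamine- and cyclic AMP-regulated inhibitor, stood at 1.69, 2.29 and 2.07 against 0.41, 0.23 and 0.60, a change of -1.60 ± 0.40 (adjusted p = 0.00996) that did not pass without Uninjured replicate 2. Ppp1r2, or inhibitor 2, stood at 1.32, 2.41 and 1.21 against 0.42, 0.50 and 0.23. Uninjured replicate 2 was the high value for Ppp1r2, and the change of -1.26 ± 0.38 (adjusted p = 0.0283) became -0.88 and did not pass without that array. Ppp1r3b, a glycogen-targeting subunit, stood at 3.94 on Uninjured replicate 1 and at -1.47 and -1.45 on the other two, so 1 array set its mean.

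Ppp1r15a, also called GADD34, directs PP1 to the translation factor eIF2alpha during cellular stress. It stood at -0.35, -0.49 and -0.69 in Uninjured and at 0.98, 0.28 and 0.33 in Injured 4 hr. Every injured array was above every uninjured one, and the change of 1.04 ± 0.49 was the largest positive one among the 60 members but did not pass (adjusted p = 0.169). Its window of 250 bases before the start, at chr1:105139597-105139846 on the minus strand, is shown because it is the member with the largest positive change. Capitals mark core sites, and the full element TGACGTCA, which holds a core site on each strand.
Ppp1r15a: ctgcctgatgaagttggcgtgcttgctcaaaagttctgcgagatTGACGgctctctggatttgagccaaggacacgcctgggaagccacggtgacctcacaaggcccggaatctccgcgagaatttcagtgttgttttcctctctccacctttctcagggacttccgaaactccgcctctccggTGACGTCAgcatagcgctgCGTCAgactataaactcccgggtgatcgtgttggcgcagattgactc
It held 1 full element and no GC box. The full element was present in 5 of the 49 member promoters and in 1.59% of all promoters of this length.

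PP2A is a trimer of a scaffold, a catalytic and a regulatory B subunit. All 7 of its probes had a negative change, and 2 were lower. Ppp2r1a, the scaffold, stood at 3.57, 3.37 and 3.29 in Uninjured and at 1.36, 0.75 and 1.27 in Injured 4 hr. The lowest uninjured array was well above the highest injured one, and the change was -2.29 ± 0.41 (adjusted p = 0.000809). Ppp2r2b, a B subunit enriched in brain, stood at 2.29, 2.37 and 2.16 against 1.27, 0.73 and 1.03, without overlap. Its change was -1.27 ± 0.41 (adjusted p = 0.0402), and it did not pass when any 1 of the 6 arrays was left out. The catalytic subunit Ppp2ca stood at 3.02 and 3.15 on 2 Uninjured arrays and at 1.90, 1.20 and 2.22 on the injured ones, a difference of -1.32 ± 0.50 that did not pass (adjusted p = 0.0797). The other catalytic subunit, Ppp2cb, differed by -0.89 ± 0.48 (adjusted p = 0.227), and since both sequences are closely alike their probes may share signal. The 3 probes to the related enzymes PP4, PP5 and PP6 had changes from -1.23 to -0.49, and none passed.

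The 2 lower tyrosine phosphatases are both receptors. Ptprz1, a proteoglycan receptor of glia and their precursors that binds pleiotrophin and contactin, stood at 2.20 and 2.08 on 2 Uninjured arrays and at 0.84, 0.14 and 0.50 on the injured arrays. The groups did not overlap, and the change was -1.65 ± 0.39 (adjusted p = 0.00882). Ptprn2, a protein of dense-core secretory vesicles, stood at 2.55 and 2.11 against 0.40, 0.41 and 0.63, a change of -1.85 ± 0.43 (adjusted p = 0.0074). Ptpra, a receptor that activates Src-family kinases, differed by -1.14 ± 0.42 and did not pass (adjusted p = 0.0708).

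No other tyrosine phosphatase passed. Ptprc, or CD45, the leukocyte receptor phosphatase, stood at -0.52, -0.47 and -0.78 in Uninjured and at -0.29, -0.18 and -0.08 in Injured 4 hr. Its injured arrays were all higher, by 0.40 ± 0.46, and it did not pass (adjusted p = 0.582). Ptpn1, or PTP1B, which acts on the insulin and leptin receptors, stood at -1.09, -0.59 and -0.79 against -0.05, -0.16 and -0.43, a difference of 0.61 ± 0.37 (adjusted p = 0.29). Ptpn11, or SHP2, which relays growth factor and cytokine signals, stood at 1.72, 2.13 and 1.69 against 2.21, 2.13 and 2.34. Its groups touched at 2.13, and the difference was 0.38 ± 0.49 (adjusted p = 0.63). The 2 PRL enzymes, Ptp4a1 and Ptp4a2, differed by -0.44 ± 0.45 (adjusted p = 0.541) and -0.12 ± 0.38 (adjusted p = 0.851).

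For 2 genes more than 1 probe was present. The 3 Ptpre probes, to a receptor phosphatase of macrophages and nerve, gave -0.12 ± 0.48, 0.05 ± 0.56 and 0.84 ± 0.38, and the groups of the third did not overlap (its adjusted p = 0.152). The 2 Ptpro probes, to a receptor phosphatase of podocytes and neurons, differed in sign, at -0.49 ± 0.44 and 0.51 ± 0.34. None of these 5 probes passed, so their agreement cannot be judged from calls.

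Counting arrays rather than tests, 21 members had every injured array below every uninjured one, against 32.9% of all probes, and 8 had every injured array above, against 21.1%. Of the 21, 18 were serine/threonine probes, and of the 8, 7 were tyrosine probes.

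The family contrast was also taken array by array, as the tyrosine median less the serine/threonine median over the 26 and 22 probes measured on all 6 arrays. It was -1.78, -1.96 and -1.76 on the Uninjured arrays and -0.58, -0.46 and -0.49 on the Injured 4 hr arrays. The 2 groups were well separated, with means of -1.83 ± 0.11 and -0.51 ± 0.06 (SD, n = 3 each) and a difference of 1.33. The serine/threonine median went from 1.56 ± 0.20 to 0.37 ± 0.04, and the tyrosine median from -0.27 ± 0.10 to -0.14 ± 0.04 (SD, n = 3). This contrast is a description, without a p-value. Other scalings made it smaller: the difference was 0.15 after quantile normalization and 0.41 after scaling arrays to 1 median absolute deviation, and in both the groups still did not overlap.

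**Figure D2:**
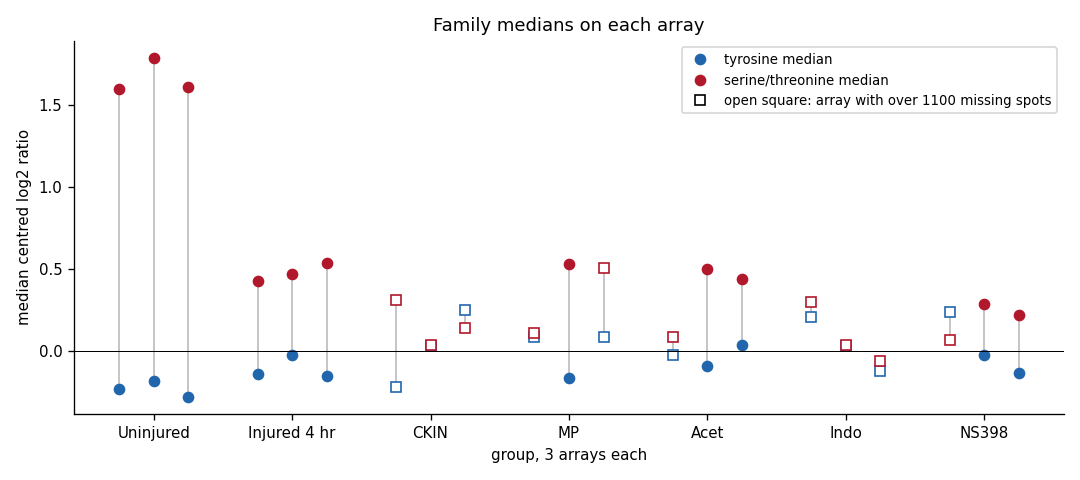
Median centred log2 ratio of the tyrosine (blue) and serine/threonine (red) probes with a value on each of the 21 arrays, by group, with open squares for the 10 sparse arrays. The tyrosine median less the serine/threonine median is -1.97 to -1.83 on the Uninjured arrays and -0.68 to -0.50 on the Injured 4 hr arrays.

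The injury changes went together with the level of the ratios. The Injured 4 hr arrays compare cultures with a pool of cultures given the same treatment, and yet their ratios were not all near 0: 15 members were higher than 0 and 1 was lower, against 22.0% of all probes in either direction. The median injured ratio was 0.48 over the serine/threonine probes and -0.11 over the tyrosine probes. Across the 4821 probes the injury change and the mean injured ratio had a Pearson correlation of -0.50, and across the 60 members -0.43. Both quantities use the same injured arrays and the probes share every array, so these are descriptions. After quantile normalization no member passed, and after scaling to 1 median absolute deviation 1 was higher and none lower.

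**Figure D3:**
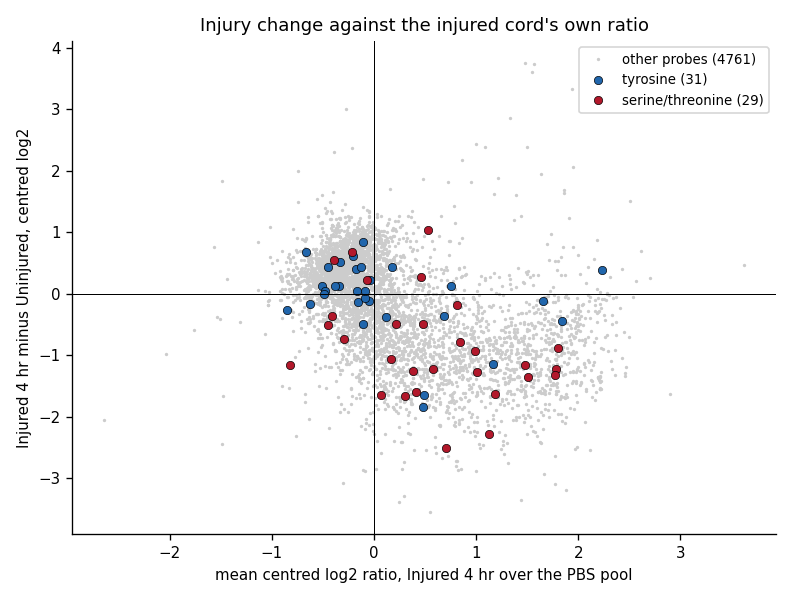
Change from Uninjured to Injured 4 hr against the mean Injured 4 hr ratio to its pool, both in centred log2 units, for 4821 probes. Serine/threonine probes (red) lie mostly to the right of and below 0, and tyrosine probes (blue) mostly near 0 on both axes.

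The relation was therefore removed in a second set of values, the corrected ratios, in which each array was fitted by a loess curve on the mean injured ratio and then centred by source plate of the spots. On this scale 2 members were higher, against 2.43% of all probes, and 2 were lower, against 4.90%. Ppp3r1 changed by -1.49 ± 0.37 (adjusted p = 0.0204) and Ppp2r1a by -1.11 ± 0.34 (adjusted p = 0.0491). Ppp1r15a was higher by 1.76 ± 0.47 (adjusted p = 0.031) and Ptpn11 by 0.92 ± 0.26 (adjusted p = 0.0394). Because the curve is on the mean injured ratio, the corrected injured mean of each member is close to 0 by construction. A corrected change therefore gives how far the Uninjured arrays lay from that curve, at a mean of -1.77 for Ppp1r15a and -0.92 for Ptpn11. The other 9 members that were lower in the centred ratios had corrected changes from -1.31 to -0.16, and none of them passed. The corrected family contrast differed by 0.40, from -0.36 ± 0.13 to 0.05 ± 0.08 (SD, n = 3), again without overlap, with the injured value close to 0 by construction.

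**Figure D4:**
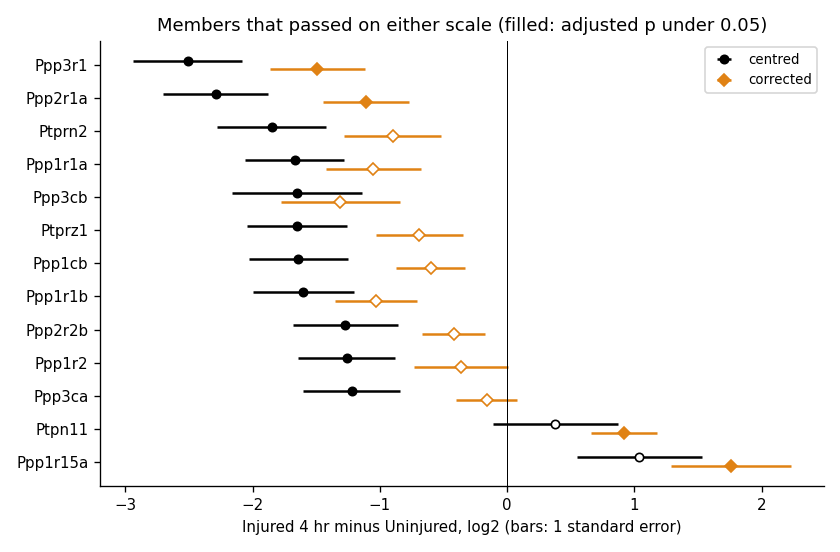
Change from Uninjured to Injured 4 hr in centred (black circles) and corrected (orange diamonds) ratios for the 13 members that passed on either scale, in log2 units with bars of 1 SE and filled symbols for adjusted p under 0.05. Ppp3r1 and Ppp2r1a are filled on both scales, and Ptpn11 and Ppp1r15a only on the corrected one.

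Markers of the cells in the cord moved in the same comparison. Over all probes, 13.5% were lower and 0.809% higher in centred ratios. Of 11 neuronal marker probes, 7 were lower and none higher, with array means of 3.13 to 3.37 in Uninjured and 1.32 to 1.51 in Injured 4 hr. Of 8 astrocyte marker probes, 4 were lower, with array means of 2.31 to 2.53 against 0.93 to 1.12. One of 9 probes for oligodendrocytes and their precursors was lower. None of 7 probes for microglia, macrophages and other leukocytes passed in centred ratios. Nor did any of 7 for endothelium and pericytes or of 7 for Schwann cells and connective tissue. In corrected ratios 5 neuronal and 2 astrocyte probes were lower, against 4.90% of all probes. On that scale 1 leukocyte probe and 1 endothelial or pericyte probe were higher, against 2.43%, and no other marker probe passed. The part of these markers in the phosphatase changes was not tested, and in whole tissue fewer cells of a type and less RNA per cell cannot be told apart.

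Other genes of phosphatase signalling, from a list of 83, were measured by 36 probes. Of these, 1 was higher, against 0.809% of all probes, and 8 were lower, against 13.5%. The median change was -0.41, against -0.05 over all probes. Of the 8 lower probes, 1 is not named here. Dusp1, the nuclear phosphatase that inactivates MAP kinases, was higher by 1.60 ± 0.36 (adjusted p = 0.00507), and by 2.63 in corrected ratios (adjusted p = 4.07e-05). Sirpa, a neuronal and myeloid receptor that recruits SHP1 and SHP2, changed by -2.28 ± 0.32 (adjusted p = 0.000111), and by -1.59 in corrected ratios (adjusted p = 0.000626). Chp1, a calcineurin B homologue, changed by -2.12 ± 0.35 (adjusted p = 0.000439) and by -1.93 after correction (adjusted p = 0.00199). The calmodulin gene Calm2, whose product activates calcineurin, changed by -1.64 ± 0.48 (adjusted p = 0.0232). The genes Mdk and Cntn1, whose products bind Ptprz1, changed by -1.79 ± 0.43 (adjusted p = 0.0074) and -1.71 ± 0.44 (adjusted p = 0.0131). The anchoring protein gene Akap12 changed by -1.68 ± 0.39 at 1 probe (adjusted p = 0.00702), while its other probe differed by 0.53 ± 0.34 (adjusted p = 0.342). Ppm1a, a phosphatase of another family, changed by -1.40 ± 0.38 (adjusted p = 0.0176). Mdk, Cntn1, Calm2 and Ppm1a did not pass after correction. In fits that left out 1 array, Calm2 and Ppm1a passed in 3 of 6, Cntn1 in 3 of 4 and the other named calls in all 6.

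The second comparison set each treatment against Injured 4 hr. With CKIN, 48 members had enough values. None was higher, against 1.47% of all probes, and 9 were lower, against 18.6%. At an unadjusted p under 0.05, limma placed 0 of these 48 members higher and 15 lower, where 1259 of 3735 probes passed in either direction. The 9 were 6 serine/threonine and 3 tyrosine probes. The median change was -0.32 over the members and -0.38 over all probes tested, and the share of lower members was near that of all probes. Without centring, 26 members were higher and none lower. Cell markers were lower in the same comparison: 4 of 8 oligodendrocyte probes (median -1.50), 3 of 8 astrocyte probes (median -0.84), 2 of 11 neuronal probes (median -0.85), 1 of 5 leukocyte probes and 1 of 5 Schwann cell and connective tissue probes. No marker was higher, none passed in corrected ratios, and their part in the member changes was not tested.

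Of the 4 probes to regulatory B subunits of PP2A, 2 were lower. Ppp2r2b stood at -1.63, -1.10 and -1.51 with CKIN against 1.27, 0.73 and 1.03 in Injured 4 hr, far from overlap, and changed by -2.42 ± 0.41 (adjusted p = 0.00218). Ppp2r2a stood at -1.13, -0.65 and -1.42 against 0.43, 1.26 and 0.73, also apart, and changed by -1.88 ± 0.39 (adjusted p = 0.00564). The other B subunits, Ppp2r2c and Ppp2r2d, differed by -0.70 ± 0.40 (adjusted p = 0.229) and -0.45 ± 0.42 (adjusted p = 0.487) and did not pass. Both PRL enzymes were lower. Ptp4a1 stood at -0.06, -0.38 and -0.34 against 1.70, 1.92 and 1.90, and changed by -2.10 ± 0.44 (adjusted p = 0.00564). Ptp4a2 stood at 0.39, 0.03 and -0.52 against 1.57, 1.65 and 1.72, and changed by -1.68 ± 0.38 (adjusted p = 0.00707). Ppp2r2b, Ppp2r2a, Ptp4a1 and Ptp4a2 passed in each fit that left out 1 array.

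The other 5 lower members did not. Ptpru, a receptor phosphatase of cell contacts, stood at -2.81, -2.90 and -1.58 against -0.24, -1.20 and -0.58, and changed by -1.76 ± 0.53 (adjusted p = 0.0272). Ppp3r2 changed by -1.36 ± 0.47 (adjusted p = 0.0433), from -0.53, -0.31 and -0.33 to -1.36, -1.90 and -2.00. Ppp2cb changed by -1.36 ± 0.48 (adjusted p = 0.0466), from 1.68, 1.80 and 1.91 to 0.50, 0.78 and 0.02. Each of these had all CKIN arrays below all injured ones. Ppp1cb, at 0.38, -0.37 and 0.14 with CKIN, changed by -1.13 ± 0.39 (adjusted p = 0.0459), and Ppp3ca, at 0.72, 0.73 and 0.63, by -1.09 ± 0.38 (adjusted p = 0.048). In corrected ratios no member passed, where 0.643% of all probes did, and Ppp2r2b was nearest at -1.07 ± 0.25 (adjusted p = 0.0556). All CKIN arrays were sparse and no injured array was, and with the sparse set as a term in the fit no member passed. Of the other pathway genes, 6 of 32 probes were lower, near the 18.6% of all probes, and none after correction. They were Cabin1 (-1.60), Lyn (-1.40), Calm2 (-1.34), Cntn1 (-1.30), Ptn (-1.24) and Dusp1 (-1.07). In fits that left out 1 array, Cabin1 passed in 3 of 4, Lyn in 3 of 6 and Calm2 in none of 6. Cntn1, Ptn and Dusp1 each passed in 1 of 6.

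With MP, 1 of 59 members was lower, where 2.05% of all probes passed in either direction. It was Ppp2r2a, at -1.40, -0.05 and -0.97 against 0.43, 1.26 and 0.73. MP replicate 2, the array of this group that was not sparse, was the highest of the 3 and still below the injured arrays. The change was -1.61 ± 0.39 (adjusted p = 0.0326). It passed in 1 of the 6 fits that left out an array, the one without MP replicate 2, in which 6 members passed. Ppp6c, the catalytic subunit of PP6, stood at 1.90, 1.22 and 1.64 with MP against 0.14, 0.23 and 0.15. All MP arrays were above all injured ones, but the difference of 1.41 ± 0.40 did not pass (adjusted p = 0.0665). Ptpru differed by -1.80 ± 0.54 (adjusted p = 0.0764). In corrected ratios 0 members and 1.05% of all probes passed. Lyn, a Src-family kinase that phosphorylates docking sites for SHP1, was the 1 of 33 pathway probes that passed, at -1.58 ± 0.39 (adjusted p = 0.0332). Lyn too passed in 1 of the 6 fits that left out an array, the one without MP replicate 2. No cell marker passed with MP in centred ratios.

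With Acet, 0 of 59 members passed in limma, against 1.31% of all probes. At an unadjusted p under 0.05, 3 were lower, where 635 of 4733 probes passed in either direction. Ppp2r2a, at -0.93, -0.49 and -0.56, was again below all injured arrays, with a difference of -1.47 ± 0.39 (adjusted p = 0.0637). In corrected ratios none passed either, against 0.951% of all probes. No pathway probe of 35 passed. Among the cell markers 2 of 7 Schwann cell and connective tissue probes were lower, to the collagen genes Col1a1 (-1.56) and Col1a2 (-2.44).

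These 3 comparisons share the injured arrays, so their likeness is no evidence of a shared response. Set against each other, the treatments were not separated. No member passed between CKIN and Acet (0.160% of all probes), between MP and Acet (0.0228%) or between CKIN and MP (0%). The unadjusted p in limma was under 0.05 for 6 of 47, 2 of 58 and 8 of 47 members. Over all probes it was so for 655 of 3749, 275 of 4378 and 552 of 3632. Ppp2r2b, for example, differed by -1.16 between CKIN and Acet (95% interval -2.01 to -0.31) and did not pass (adjusted p = 0.174), so a lack of calls does not show that the treatments acted alike.

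Indo and NS398 were each set against the pool of their solvent and tested against a ratio of 0. No unpooled solvent culture was among the samples, so each pool was 1 control sample whose own spread was outside the test. Against 0, 22.0% of all probes passed even in Injured 4 hr, which was set against a pool of like cultures. With Indo, 1 of 51 members was higher, against 2.60% of all probes, and 5 were lower, against 10.7%. Ptpru was the lowest, at -3.16, -2.45 and -2.79, a mean of -2.80 ± 0.38 (SE; adjusted p = 3.58e-05). Ppp3r2 stood at -1.51, -0.99 and -1.87, with a mean of -1.46 ± 0.33 (adjusted p = 0.00323). Ppp2r2a stood at -1.50, -1.53 and -0.78 (-1.27 ± 0.28, adjusted p = 0.00264). All 3 genes were below 0 on every Indo array. Ppp2r2b, at -1.04, -0.96 and -0.93 (-0.98 ± 0.29, adjusted p = 0.0263), had the tightest values. Ppp1r1c, a PP1 inhibitor of neurons, stood at -1.27, -0.58 and -0.76 (-0.87 ± 0.28, adjusted p = 0.0398). Ptpn11 was the higher member, at 1.41, 1.01 and 0.64 (1.02 ± 0.34, adjusted p = 0.0499). It was also among the 15 members above 0 in Injured 4 hr. Ptpru and Ppp2r2a passed in each fit that left out 1 array, Ppp3r2 in all but the one without replicate 3, and Ppp2r2b, Ppp1r1c and Ptpn11 in none of 3. In corrected ratios 5 of 51 members passed, near the 9.73% of all probes. Ptpru (-2.11), Ppp2r2a (-1.08) and Ppp2r2b (-0.84) were lower, and Ppp2r2d (0.75) and the first Ptpre probe (1.07) were higher. Of 33 pathway probes 1 was higher, against 2.60% of all probes, and 4 were lower, against 10.7%. Dusp1 stood at 1.01, Lyn at -1.58, Irs1 at -1.37, Cdc25b at -1.16 and Sirpa at -0.73. Lyn and Irs1 passed in each of 3 fits that left out 1 array, Dusp1 in 1 of 3 and Sirpa in none. Cdc25b was tested in 1 such fit and passed. Among the cell markers 1 of 11 neuronal probes was higher and 1 of 7 endothelial and pericyte probes lower, and none passed in corrected ratios.

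With NS398, 7 of 59 members were higher, against 10.7% of all probes, and 6 were lower, against 11.3%. Ptpn11 led the higher ones at 0.74, 1.84 and 2.29, a mean of 1.62 ± 0.34 (adjusted p = 0.00203). Its sparse array, replicate 1, was the lowest. The others were Ppp1r9b, or spinophilin, a PP1 anchor of dendritic spines (1.10 ± 0.26), Ptp4a1 (1.09 ± 0.32), Ppp2cb (0.96 ± 0.34), Ppp2ca (0.94 ± 0.31), Ptprr, a MAP kinase phosphatase of neurons (0.86 ± 0.29), and Ppp3ca (0.84 ± 0.27), with adjusted p from 0.00546 to 0.0455. On every NS398 array these ratios were above 0. Leaving out 1 array ended most of these calls: Ptpn11 passed in all 3 such fits and Ppp1r9b in 2, but Ptp4a1, Ppp2cb, Ppp2ca and Ppp3ca passed only without replicate 1 and Ptprr only without replicate 3. Their means ranged from 0.83 to 1.52 for Ptp4a1, 0.58 to 1.36 for Ppp2cb, 0.52 to 1.29 for Ppp2ca, 0.49 to 1.17 for Ppp3ca and 0.60 to 1.20 for Ptprr. The Injured 4 hr arrays gave 15 members above 0 against a pool of like cultures, and 6 of the 7 NS398 members were among those 15, all but Ptprr.

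Ptpru was the lowest member with NS398. It stood at -2.71, -2.64 and -1.61 (-2.32 ± 0.38, adjusted p = 0.000249). Ptpn1 was measured on 2 arrays, at -1.73 and -1.32 (-1.52 ± 0.32, adjusted p = 0.00216). Ppp3r2 stood at -0.73, -0.80 and -3.10 (-1.54 ± 0.33, adjusted p = 0.0022), with replicate 3 far below the others. Without that array its mean was -0.76 and it did not pass. Ptprs, a receptor for proteoglycans of glial scars, was measured on 2 arrays, at 0.04 and -3.34, so its mean of -1.65 ± 0.52 (adjusted p = 0.029) rested on 1 array. Ppp1r1c (-0.92 ± 0.28, adjusted p = 0.0213) was below 0 on every array. Ppp1r10, a nuclear PP1 subunit, stood at 0.20, -1.14 and -1.76 (-0.90 ± 0.29, adjusted p = 0.0315). Ppp1r1c passed only without replicate 3 and Ppp1r10 only without replicate 1, with means from -1.01 to -0.77 and from -1.45 to -0.47. In corrected ratios 5 of 59 members passed, against 13.1% of all probes. Ptpru (-1.68), Ptpn1 (-1.28) and Ppp2r2b (-0.80) were lower, and Ptprr (0.90) and Ppp2r2d (0.80) were higher. Of 35 pathway probes 6 were higher and 5 lower, led by Dusp1 (1.83), Cdc25b (-1.58), Lyn (-1.44) and Strn (-1.40), a B subunit of PP2A. Calm3 at 1 of its probes (1.18), the PP2A inhibitor Ensa (-1.15), the Src inhibitor kinase Csk (1.11) and Mdk (1.07) also passed. Dusp1, Cdc25b and Lyn passed in all 3 fits that left out 1 array. Csk passed in 2 of them, and Strn, Calm3, Ensa and Mdk in 1. Some cell markers were higher in the same comparison: 4 of 7 Schwann cell and connective tissue probes (median 1.38, the 4 also higher in corrected ratios). So were 2 of 8 astrocyte, 2 of 8 oligodendrocyte and 1 of 11 neuronal probes. In corrected ratios no astrocyte, oligodendrocyte or neuronal probe was higher, and 1, 1 and 3 were lower. In Injured 4 hr, 5 of 8 astrocyte, 7 of 9 oligodendrocyte and 10 of 11 neuronal probes were higher than 0 against a like pool. Of the Schwann cell and connective tissue probes, 3 of 7 were. Of 7 endothelial and pericyte probes 1 was higher and 1 lower, and the part of these markers in the member values was not tested.

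Few members were low with every treatment, a share near that of all probes. Of the 43 members with at least 2 values in Injured 4 hr and in each of the 5 treatment groups, 3 had all 15 treatment arrays below all 3 injured arrays, against 7.27% of the 3203 probes counted alike, and none had all above, against 0.281%. Ppp2r2a ran from -1.53 to -0.05 with a median of -0.93 on the treatment arrays, against 0.43 to 1.26 on the injured ones. Ppp2r2b ran from -1.63 to 0.50 with a median of -0.93, against 0.73 to 1.27. Ppp3r2 ran from -3.10 to -0.73 with a median of -1.51, against -0.53 to -0.31. In corrected ratios 1 of them, Ppp2r2b, was still below on all 15, against 2.81% of all probes. Ptpru missed this count, since MP replicate 2 at -1.09 was above an injured array at -1.20, but it was below 0 on all 20 arrays that measured it. The treatment arrays differed from the injured arrays in sparse spots, whole-number ratios and, for Indo and NS398, the pool, and the part of these in the low values was not tested.

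**Figure D5:**
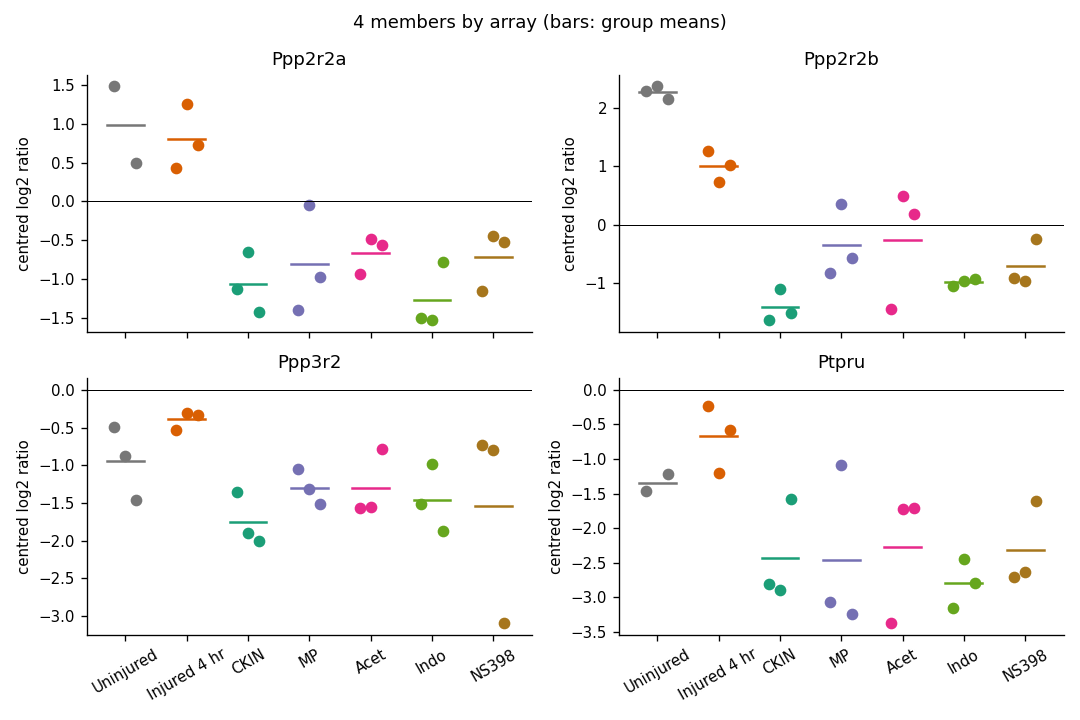
Centred log2 ratios of Ppp2r2a, Ppp2r2b, Ppp3r2 and Ptpru on each array by group, with bars at group means. Indo was set against an ETOH-treated pool, NS398 against a DMSO-treated pool and all other groups against pooled RNA of PBS-treated cultures. For the first 3 genes all 15 treatment points lie below the 3 Injured 4 hr points.

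In centred ratios the family contrast on the treatment arrays overlapped with that on the injured arrays. The tyrosine median less the serine/threonine median differed from Injured 4 hr by 0.19 with CKIN, 0.19 with MP and 0.23 with Acet. This depended on the scaling: after scale normalization the differences were 0.35, 0.41 and 0.45, and all MP and all Acet arrays were then above the injured ones, as were the Acet arrays after quantile normalization (0.33). In corrected ratios the differences were -0.10, -0.07 and 0.04, with overlap in each. Against 0, the contrast was 0.05 ± 0.39 with Indo and -0.04 ± 0.21 with NS398 (SD, n = 3). In corrected ratios it was 0.20 ± 0.15 with NS398 (SD, n = 3), above 0 on all 3 arrays. Over all probes measured it was -0.69 on MP replicate 2, which was not sparse, and -0.02 and -0.42 on the sparse MP arrays, and in Acet -0.59 and -0.39 against -0.12 on the sparse array. The CKIN arrays, all sparse, ran from -0.53 to 0.11, and the Indo arrays, also all sparse, from -0.09 to -0.01.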

How the data were processed

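RNA of rat spinal cord was hybridised to 21 two-colour arrays, 3 in each of 7 groups. The authors deposited 1 log2 ratio per spot and array, and no source used here gives their background correction, normalization or log base; log2 was inferred from the values. Precision is limited by the number of arrays. Each array was centred on its median, and the 53 Gapdh probes were averaged. limma 3.58.1 in R 4.3.3 was fitted with lmFit and eBayes to all 7 groups together, with Benjamini-Hochberg adjustment over all probes tested. Indo and NS398 were tested against 0. Corrected ratios used a loess curve of span 0.4 and source plates with at least 20 probes. The script was tested on simulated data. Symbols were updated through gene IDs; 59 of 60 members matched and Ppp1r1c kept the file's name. The text names passing members, 9 members set for the injury comparison (of which Ptprn had no probe), genes with more than 1 probe and the pathway genes that passed, at most 8 per comparison; Ppp1r15a, Ppp1r3b, Ppp6c and members near the threshold were chosen after their values were seen. The members and lists were chosen with earlier results of these data known. Same-numbered arrays correlated from -0.18 to 0.51 in their deviations from group means. The highest were MP and Acet replicates 1 (0.34) and 2 (0.51). Differently numbered arrays are not set beside these values, so they do not show whether the numbers pair the arrays. The main fit used no pairing. Alternatives tried were other scalings, filters, blocks and fits, and leaving out each array.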

Additional observations from a re-analysis of the deposited data

How the results depend on the processing

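The scaling of the arrays had the widest effect. Counts of members that passed moved from 11 to 21 in the injury comparison without centring, to 0 with quantile normalization, to 1 with scale normalization, to 4 with corrected ratios, to 7 with all 3 values required and to 23 with only the compared groups in the fit (2 higher, 21 lower). For CKIN the 9 became 26, 5, 16 and 0 under those 4 scalings in turn, 5 with at least 1 value, 14 with only the compared groups, and 0 with the sparse array set as a block. For MP the count of 1 became 46, 0, 10 (1 higher, 9 lower) and 0 under those scalings. It was 0 with only the compared groups, 0 with the array set block and 19 against the pool (13 higher, 6 lower). For Acet the count of 0 became 44 without centring and 9, all lower, with scale normalization. It was 1 with only the compared groups and 15 against the pool (12 higher, 3 lower). Without centring, every member that passed for injury, CKIN, MP and Acet was higher. Over all probes 2430 of 4821, 2232 of 3735, 3169 of 4390 and 3370 of 4733 then passed, 99.4% to 100% of them higher. With scale normalization 646 of all probes passed for MP and 507 for Acet, and against the pool 1370 and 1443. Indo went from 6 to 3 without centring and 13 with quantile normalization, and NS398 from 13 to 21 without centring (none higher; the median of all probes shifted by -0.98), 5 with corrected ratios and 1 with only the compared groups. CKIN against Acet had 1 with quantile normalization. The share of higher calls among all probes passing in the injury comparison was 5.65% with centring, 99.4% without it and 33.1% with corrected ratios. The cause was not tested.

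Whether the numbers shared by the groups pair the arrays is not known. With the replicate block 13 members passed in the injury comparison, 11 with CKIN and 1 with Acet, and the other counts did not move. The array set block was not run for the comparisons against 0, where its value depends on how the set is coded.

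Leaving out 1 array at a time gave 5 to 8 members for injury, 4 to 7 for CKIN, 0 to 6 for MP, 0 to 1 for Acet, 3 to 4 for Indo, 4 to 11 for NS398 and 0 to 1 for CKIN against Acet. Of the 11 injury members, 6 passed in each such fit that tested them. Among these 6, Ppp3r1, Ptprz1 and Ptprn2 had 2 Uninjured values and were not tested without either one. Their 4 fits therefore never left out an Uninjured value.

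The family difference for injury was 0.86 with means, 0.40 with corrected ratios, 0.15 with quantile normalization and 0.41 with scale normalization, the last chosen after seeing the data. For CKIN it was 0.44 over each probe with a value and -0.10 with corrected ratios, for MP 0.41 and for Acet 0.45 with scale normalization, and for NS398 0.20 with corrected ratios. Without 1 array it ran from 1.30 to 1.41 for injury, 0.12 to 0.46 for CKIN, -0.01 to 0.27 for MP, 0.09 to 0.34 for Acet, -0.12 to 0.13 for Indo and -0.35 to -0.03 for NS398.

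Without centring the injury changes of Ppp3ca (0.30), Ppp1r2 (0.26), Ppp2r2b (0.26) and Ppm1a (0.13) turned sign, as did Ppp3ca (0.62) and Calm2 (0.37) with scale normalization. For CKIN, without centring, Ppp3ca (0.84), Ppp3r2 (0.56), Ppp1cb (0.79), Ppp2cb (0.56), Ppp2r2a (0.05), Ptp4a2 (0.25), Ptpru (0.16), Cabin1 (0.19), Dusp1 (0.85), Ptn (0.68), Cntn1 (0.63), Lyn (0.53) and Calm2 (0.59) turned sign, as did Ppp3ca (0.19) and Calm2 (0.23) with corrected ratios and Ppp3ca (0.70), Ppp1cb (0.05), Ppp2cb (0.43), Dusp1 (0.32), Ptn (0.02) and Calm2 (0.44) against the pool. For MP, Ppp2r2a (0.37) and Lyn (0.40) did so without centring. For NS398, Ppp3ca (-0.06) and Ptprr (-0.04) did so without centring, and Ppp3ca (-0.16), Ppp2ca (-0.02) and Ppp2cb (-0.01) with corrected ratios. None of these turned values passed.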
